A study of Homo sapiens with 4 samples.

Results

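The 39 genes described here encode enzymes and regulators of cholesterol and fatty acid synthesis. They were chosen by name as the SREBP regulators, the sterol pathway in enzyme order, and fatty acid synthesis, desaturation and activation, and all 39 were found by GENCODE v29 symbol among the 19729 genes of the deposited files. The RNA came from HT-29 cells, a human colorectal cancer line that is microsatellite stable and carries BRAF and APC mutations. The cells carried a lentiviral shRNA under doxycycline (DOX) control, targeting either APC (the group APC shRNA) or no transcript (the group NonS, non-silencing), and 500 ng/ml DOX was given to all cells for 72 h, so that DOX, vector and host mutations were shared by both groups. Duplicates of each, numbered I and II, gave 4 libraries. Whether they came from separate transductions was not given in the sources used here, and other differences between the transduced cells cannot be told apart from silencing.

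Cholesterol is built from acetyl-CoA through mevalonate, isoprenoid diphosphates, squalene and a series of sterol intermediates, and fatty acids are built from the same acetyl-CoA by carboxylation and repeated elongation. Both routes are driven by the SREBP transcription factors, which are held in the endoplasmic reticulum membrane while sterols are plentiful and are released by proteolysis in the Golgi when sterols are scarce. The SREBF2 product acts mainly on sterol genes and the SREBF1 product mainly on fatty acid genes, and the liver and the intestine are major sites of both routes.

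Each gene and library carries 1 deposited whole number. The totals per library lay between 398338 and 413595. The paper calls these values counts, but the variance between duplicates of low genes was 0.474 and 0.345 times that of independent read counts in NonS and APC shRNA libraries. The sum of value times length in kb of the longest transcript lay between 980841 and 984873 in the 4 libraries. The values were therefore treated as a length-scaled score of unstated scale, read depth is unknown, and no counting interval is given. Differences are on the log2(value + 1) scale, which understates the change of low genes. They were tested with limma in the 5376 genes whose mean reached 10, and a call is a Benjamini-Hochberg adjusted p under 0.05. Of the 39 genes, 31 passed this filter. The numbers I and II were taken to mark repeats of the experiment, and the value from a fit with replicate number as a block is given where it changes a call.

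Of 11 colonic epithelial markers, KRT8 (1202 to 1534) and KRT18 (1550 to 2083) were the highest, and CDX1 and CDX2 were at 0 to 4 in every library. In the same list LGALS4 was at 557 and 646 in NonS against 175 and 147 in APC shRNA libraries, CEACAM5 at 10 and 11 against 3 and 3, and CDH1 at 98 and 119 against 74 and 85. CDX1 was at 2 in both NonS against 0 in both APC shRNA libraries. In the other direction, KRT18 was at 1550 and 1796 in NonS against 2061 and 2083 in APC shRNA libraries. VIL1 was at 29 and 31 against 39 and 35, and CDX2 at 0 and 0 against 2 and 4. The groups overlapped in EPCAM, KRT8, KRT19 and KRT20. The part of these markers in the differences of the lipid genes was not tested. Of 10 markers of fibroblasts, endothelium and leukocytes, 9 were listed at 0 in all 4 libraries and CD68 was at 3 to 6. APC itself was listed at 3 in NonS I and at 0 in the other 3 libraries. A listed 0 can be a failed estimate, so these values do not allow the silencing to be checked on its own transcript. The paper reports that APC mRNA and protein were silenced, and lists APC among the downregulated genes of its RNA-Seq comparison. AXIN2, a feedback target of Wnt signaling, was at 16 and 22 in NonS against 124 and 178 in APC shRNA libraries.

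The comparison between APC shRNA and NonS asked which lipid synthesis genes differed when the truncated APC was silenced. Nearly all sterol enzymes had a lower mean in APC shRNA libraries, and TM7SF2 was the only one of the 17 tested with a higher mean, while few passed the test. In the fatty acid branch SCD and ACSL3 were about 2.1-fold and 2.2-fold lower, and ACSS2 and ACSL5 were 4.48-fold and 2.03-fold higher, as ratios of mean values. In limma 1 of the 31 genes rose (TM7SF2) and 3 fell (FDPS, DHCR7 and ACSL3), 12.9% against 8.04% of all genes tested. By direction, all genes gave 4.33% higher and 3.7% lower. With GC content correction 3 of the 31 rose and 6 fell, against 8.3% and 8.37% of all genes. At an unadjusted p under 0.05, 10 of the 31 were lower and 3 higher, against 15.8% and 19.8% of all genes. With the replicate block 3 of the 31 rose (TM7SF2, ACSS2 and ACSL5) and 4 fell (HMGCS1, DHCR7, SCD and ACSL3), where 9.73% of all genes rose and 9.3% fell. With block and GC content correction together 3 of the 31 rose and 19 fell, against 22.8% and 23% of all genes. The median difference of the 31 genes was -0.39, and that of all genes tested was 0.027. Both APC shRNA libraries lay below both NonS libraries in 17 of the 31 genes (54.8%, against 27.5% of all genes), and above them in 4, against 33% of all genes. Within a replicate number, 23 of the 31 genes were lower in both pairs (74.2%, against 36.9% of all genes), 6 were higher in both, and INSIG1 and MSMO1 were equal in pair II. Without the block, every adjusted p of all genes lay at or above 0.0423, and 0 of the 31 genes were called when any 1 of the 4 libraries was left out, as were 0 of all genes. With the block, the adjusted p of every gene lay at or above 0.0468, so that these calls sit at the threshold too. Because the RNA is from bulk cultures, less RNA per cell and fewer cells carrying it cannot be told apart.

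Among the regulators, none was called with or without the block. SREBF1 was called lower with block and GC content correction together, as were 23% of all genes. SREBF2, which encodes the precursor of the sterol-directed SREBP, was at 52 and 57 in NonS against 55 and 58 in APC shRNA libraries. Its difference was 0.052 (SE 0.078, adjusted p = 0.654, limma), and it turned to -0.037 with GC content correction. SCAP, the sterol sensor that escorts SREBPs to the Golgi, was at 16 in both NonS libraries against 18 and 17 in APC shRNA libraries. SREBF2 thus overlapped between the groups, while both SCAP values were slightly higher in APC shRNA libraries. SREBF1 was at 39 and 80 in NonS against 34 and 59 in APC shRNA libraries. INSIG1, which retains SCAP in the endoplasmic reticulum, was at 35 and 43 in NonS against 23 and 43 in APC shRNA libraries. For both genes the groups overlapped, and the SE exceeded the difference between conditions (-0.31, SE 0.51, adjusted p = 0.684 for SREBF1 and -0.29, SE 0.37, adjusted p = 0.600 for INSIG1, limma). With block and GC content correction the difference of SREBF1 was -0.43 (SE 0.063, adjusted p = 0.0119, limma). STARD4, a sterol carrier, was at 5 and 2 in NonS against 1 in both APC shRNA libraries, under the filter.

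The early sterol steps, from acetyl-CoA to isoprenoid diphosphates, are carried out by 7 of the listed enzymes. ACAT2, the cytosolic thiolase, was at 39 and 33 in NonS against 25 and 24 in APC shRNA libraries. Of its exonic bases 33.9% lie opposite SOD2-OT1, 26.5% opposite SOD2 and 9.23% opposite TCP1, and only TCP1 is among the genes of the deposited files. The libraries were made with a stranded kit, but whether the counting used strand was not given in the sources used here. HMGCS1, which forms HMG-CoA, was at 50 and 34 in NonS against 31 and 22 in APC shRNA libraries. Its APC shRNA values lay below the NonS values within each replicate number and over all libraries, and replicate II was lower than I in both conditions. Its difference of -0.64 had an SE of 0.29 without the block (adjusted p = 0.225, limma) and of 0.044 with it (adjusted p = 0.0473, limma). The mevalonate kinases MVK and PMVK were at 12 and 12 and at 28 and 27 in NonS, against 10 and 8 and 20 and 21 in APC shRNA libraries. MVD, the decarboxylase, was at 25 and 28 in NonS against 22 and 19 in APC shRNA libraries. IDI1, the isomerase of the isoprenoid diphosphates, was at 31 and 18 in NonS against 14 and 13 in APC shRNA libraries, with the lowest difference of the sterol enzymes (-0.77, SE 0.31, adjusted p = 0.193, limma). In these 6 enzymes both APC shRNA values lay below both NonS values, as in 27.5% of all genes. None passed the test without the block and HMGCS1 passed with it, where 3.7% and 9.3% of all genes fell. PMVK passed with GC content correction (adjusted p = 0.0424, limma), where 8.37% of all genes fell. All 6 passed with block and GC content correction together (adjusted p from 0.00901 to 0.0425, limma). That fit called 23% of all genes lower.

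FDPS, which makes farnesyl diphosphate, was at 134 and 139 in NonS against 95 and 87 in APC shRNA libraries. It fell 1.5-fold, from a mean of 136.5 ± 3.54 (SD, n = 2) to 91 ± 5.66 (SD, n = 2). The difference was -0.58 (SE 0.074, adjusted p = 0.0490, limma). The adjusted p was 0.0545 with the block and 0.0502 with at least 10 in every sample (limma), so that the call sits at the threshold in these fits. It was 0.0260 with GC content correction and 0.00522 with block and GC content correction together (limma). Of its exonic bases 18.6% lie opposite RUSC1-AS1.

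The next steps lead through squalene to lanosterol. FDFT1, squalene synthase, was at 80 and 85 in NonS against 72 and 75 in APC shRNA libraries. SQLE, the squalene epoxidase, was at 137 and 103 in NonS against 93 and 80 in APC shRNA libraries. LSS, lanosterol synthase, was at 19 and 21 in NonS against 18 and 17 in APC shRNA libraries. In each of these both APC shRNA values lay below both NonS values, as in 27.5% of all genes. None was called with or without the block (adjusted p from 0.192 to 0.212 without it, limma). With block and GC content correction together SQLE and LSS were called lower (adjusted p = 0.0132 and 0.0453, limma). FDFT1 was not called in that fit (adjusted p = 0.0761, limma), which called 23% of all genes lower. CYP51A1, the lanosterol demethylase, was at 36 and 31 in NonS against 19 and 23 in APC shRNA libraries (adjusted p = 0.0846, limma). With block and GC content correction together its adjusted p was 0.0332 (limma). Of its exonic bases 79.4% are shared on the same strand with AC000120.2, which is not among the genes of the deposited files. How reads on the shared bases were assigned was not given in the sources used here.

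TM7SF2, a reductase of the sterol C14 double bond, was at 22 and 23 in NonS against 36 and 39 in APC shRNA libraries. It thus stood apart from its neighbors in the pathway, with both APC shRNA values above both NonS values. Its mean rose 1.67-fold, from 22.5 ± 0.707 (SD, n = 2) to 37.5 ± 2.12 (SD, n = 2), and the difference was 0.71 (SE 0.070, adjusted p = 0.0452, limma). LBR, the nuclear envelope protein with the same reductase activity, was singled out after its values were seen. It was at 24 and 18 in NonS against 10 in both APC shRNA libraries, a difference of -0.99 (SE 0.17, adjusted p = 0.0632, limma) that did not pass with the block either (adjusted p = 0.0596, limma) and passed with block and GC content correction together (adjusted p = 0.00751, limma).

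After this step MSMO1, the C4 methyl sterol oxidase, was at 15 and 9 in NonS against 8 and 9 in APC shRNA libraries. NSDHL, the C4 decarboxylase, was at 44 and 42 in NonS against 43 and 39 in APC shRNA libraries, the sterol enzyme with the smallest difference (-0.068, SE 0.078). HSD17B7, the 3-ketosteroid reductase, was at 10 and 9 in NonS against 8 in both APC shRNA libraries and was not tested. EBP, the sterol isomerase, was at 44 and 38 in NonS against 28 and 27 in APC shRNA libraries (-0.56, SE 0.097, adjusted p = 0.0669, limma). With GC content correction its adjusted p was 0.0461 without the block and 0.00777 with it (limma), where 8.37% and 23% of all genes fell. SC5D, the lathosterol desaturase, was at 18 and 10 in NonS against 11 and 8 in APC shRNA libraries. The groups overlapped in MSMO1, NSDHL and SC5D, and not in EBP. DHCR7, the reductase that yields cholesterol, was at 72 and 74 in NonS against 53 and 51 in APC shRNA libraries. It fell 1.4-fold, with a difference of -0.48 (SE 0.056, adjusted p = 0.0472, limma).

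Over the pathway, 16 of the 17 sterol enzymes tested had a negative difference, against 47.1% of all genes, with a median of -0.46. In 13 of the 17 both APC shRNA values lay below both NonS values (76.5%, against 27.5% of all genes). Of the 17, 2 fell and 1 rose in limma, where 3.7% of all genes fell and 4.33% rose. Of the negative differences 7 had an unadjusted p under 0.05, a level that 15.8% of all genes reached in this direction. Differences of all genes rose with transcript GC content (Spearman's rho 0.24 over genes, a description only). The median GC content was 50.5% for the sterol enzymes and 51.9% for all genes tested, and with GC content correction the median difference of the enzymes was -0.46. With block and GC content correction together, 12 of the 17 fell and TM7SF2 rose, in a fit that called 23% of all genes lower and 22.8% higher.

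**Figure D1:**
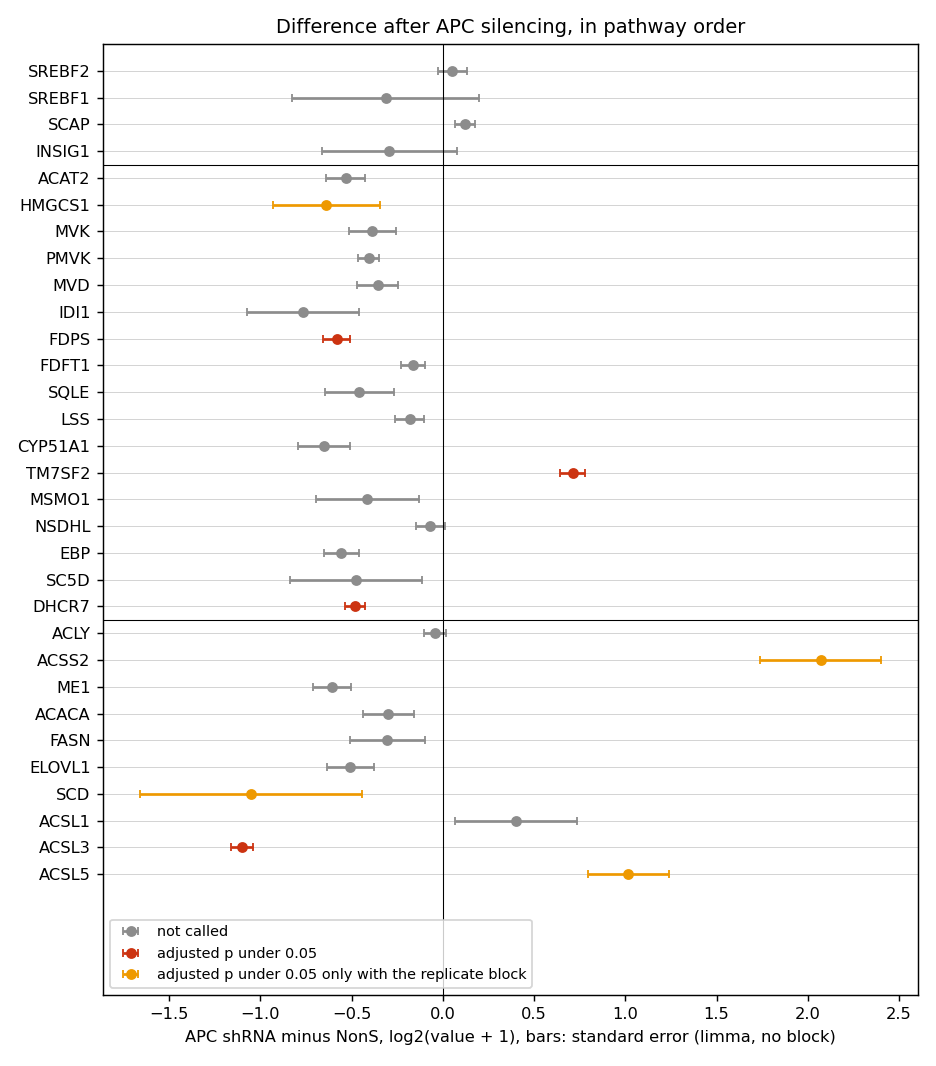
Difference between APC shRNA and NonS libraries on the log2(value + 1) scale for the 31 genes tested, in pathway order, with standard errors of the fit without the block. Red points had an adjusted p under 0.05 and orange points only with the replicate block. The sterol enzymes lie left of 0 except TM7SF2 at 0.71, and ACSS2 lies farthest right at 2.07.

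In the fatty acid branch, the enzymes that supply and carboxylate acetyl-CoA differed in direction. ACLY, which makes cytosolic acetyl-CoA from citrate, was at 85 and 82 in NonS against 83 and 79 in APC shRNA libraries, a difference of -0.044 (SE 0.061). ACSS2, which makes acetyl-CoA from acetate, was at 9 and 14 in NonS against 41 and 62 in APC shRNA libraries. Every APC shRNA value was higher than every NonS value by more than the replicates differed, and the pairs gave the same difference. The mean was 4.48-fold higher, from 11.5 ± 3.54 (SD, n = 2) to 51.5 ± 14.8 (SD, n = 2). The difference of 2.07 had an SE of 0.33 without the block (adjusted p = 0.0614, limma) and of 0.038 with it (adjusted p = 0.0468, limma). Because the whole-number values gave equal pairs, the fit with the block left no spread in ACSS2. Its SE there comes from the variance fitted over all genes. The exons of ACSS2 (GRCh38, chromosome 20, start 34872146, end 34927962) share no base with those of other annotated genes. ME1, the malic enzyme that supplies NADPH, was at 16 and 14 in NonS against 9 and 10 in APC shRNA libraries (-0.61, SE 0.10, adjusted p = 0.0651, limma). With block and GC content correction together its adjusted p was 0.0287 (limma), where 23% of all genes fell.

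ACACA, the acetyl-CoA carboxylase, was at 43 and 51 in NonS against 35 and 41 in APC shRNA libraries. FASN, the fatty acid synthase, was at 83 and 113 in NonS against 72 and 85 in APC shRNA libraries. The groups did not overlap in ACACA and overlapped in FASN, where NonS I was below APC shRNA II. Neither passed the test with or without the block (adjusted p of 0.231 and 0.362 without it and 0.0561 and 0.112 with it, limma). Both passed with block and GC content correction together (adjusted p of 0.0212 and 0.00918, limma), a fit that called 23% of all genes lower.

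Among the elongases, ELOVL1, which acts on very long chains, was at 74 and 91 in NonS against 56 and 59 in APC shRNA libraries (-0.51, SE 0.13, adjusted p = 0.104, limma). With GC content correction its adjusted p was 0.0338 without the block and 0.00756 with it (limma), where 8.37% and 23% of all genes fell. ELOVL6, which extends palmitate, was at 8 and 6 in NonS against 3 and 2 in APC shRNA libraries, under the filter. ELOVL5 was listed at 0 in all 4 libraries. The FADS genes encode desaturases. FADS2 was listed at 0 in every library, FADS1 at 0 in NonS I and at 1 in the others, and FADS3 at 5 and 7 in NonS against 9 in both APC shRNA libraries. Without counts, a listed 0 can be a failed estimate and is not read as a low level.

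SCD, which inserts the first double bond into stearate and palmitate, was the highest of the 39 genes in NonS libraries. It was at 273 and 588 in NonS against 134 and 278 in APC shRNA libraries. APC shRNA II was thus level with NonS I, and the groups overlapped, while within each replicate number the APC shRNA value was about 2.1-fold lower. The difference of -1.05 had an SE of 0.61 without the block (adjusted p = 0.310, limma) and of 0.047 with it (adjusted p = 0.0468, limma).

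The long-chain acyl-CoA synthetases, which activate fatty acids for use in lipids or oxidation, split by member. ACSL3 was at 30 and 28 in NonS against 13 in both APC shRNA libraries. It fell 2.23-fold with no overlap, a difference of -1.10 (SE 0.061, adjusted p = 0.0423, limma). ACSL5, the member abundant in intestinal epithelium, was at 93 and 122 in NonS against 190 and 247 in APC shRNA libraries. It was 2.03-fold higher, with a difference of 1.02 that had an SE of 0.22 without the block (adjusted p = 0.0844, limma) and of 0.042 with it (adjusted p = 0.0468, limma). ACSL1 was at 9 and 11 in NonS against 10 and 18 in APC shRNA libraries, with overlap, and ACSL4 at 12 and 4 in NonS against 5 and 2 in APC shRNA libraries, under the filter. ACSL3 and ACSL5 thus differed between conditions in opposite directions, by similar amounts.

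Of the 16 fatty acid genes, 10 were tested, of which 1 fell and 0 rose without the block (3 lower and 2 higher at an unadjusted p under 0.05) and 2 fell and 2 rose with it. Of all genes, 3.7% fell and 4.33% rose without the block, 15.8% and 19.8% reached the unadjusted level, and 9.3% fell and 9.73% rose with the block. The median difference of the 10 fatty acid genes was -0.30, with 7 negative and 3 positive values, where 47.1% of all genes were negative.

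The libraries also allowed replicate II to be set against I in a fit with condition and replicate number as terms. Of the 10 fatty acid genes, 7 were higher in II than in I in both conditions and 1 lower, and of the 17 sterol enzymes 2 were higher and 7 lower in both, while 36% of all genes were higher and 24% lower in both. SCD had ratios of II to I of 2.15 in NonS and 2.07 in APC shRNA libraries (difference 1.08, SE 0.047). SREBF1 had ratios of 2.05 and 1.74 (difference 0.90, SE 0.091), and ACSS2 of 1.56 and 1.51. HMGCS1 had ratios of 0.68 and 0.71, and SC5D of 0.556 and 0.727. SCD and ACSS2 were thus both higher in replicate II and differed between conditions in opposite directions.

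In limma 0 of the 31 genes and 0% of all genes were called between replicates (smallest adjusted p of all genes 0.193). At an unadjusted p under 0.05 were 6 of the 31 higher (SREBF1, ACSS2, ACACA, FASN, SCD and ACSL5) and 2 lower (HMGCS1 and SC5D), against 13% and 8.56% of all genes. The count of 0 says nothing about stability between replicates, since simulated replicate effects of this size were not called either once the values were rounded. It also rests on scaling: with median-of-ratios size factors SREBF1, INSIG1, ACSS2, SCD and ACSL5 were called higher and HMGCS1 and SC5D lower, with adjusted p from 0.000639 to 0.0406 in limma. That fit called 302 of all 5376 genes higher and 272 lower. What differed between the replicates was not given in the sources used here.

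**Figure D2:**
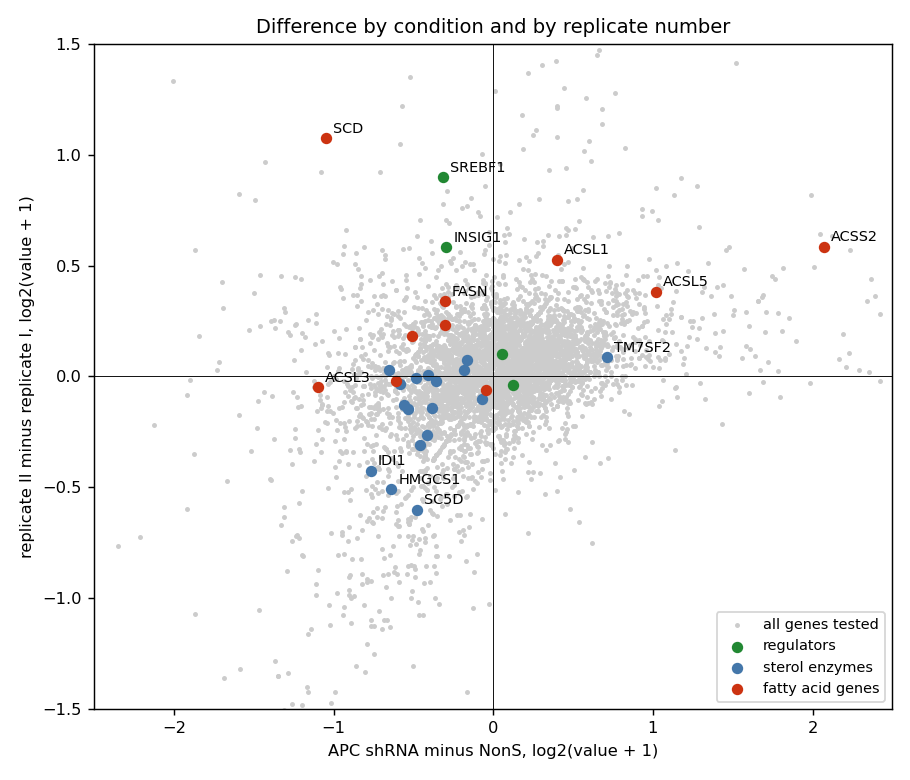
Difference between conditions (horizontal) and between replicate numbers (vertical), both on the log2(value + 1) scale, for regulators, sterol enzymes and fatty acid genes over all 5376 genes tested in grey, of which 46 lie outside the axes. SCD (-1.05 and 1.08) and SREBF1 (-0.31 and 0.90) lie at the upper left, ACSS2 (2.07 and 0.58) at the upper right, and HMGCS1 (-0.64 and -0.51) and IDI1 (-0.77 and -0.43) at the lower left.

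**Figure D3:**
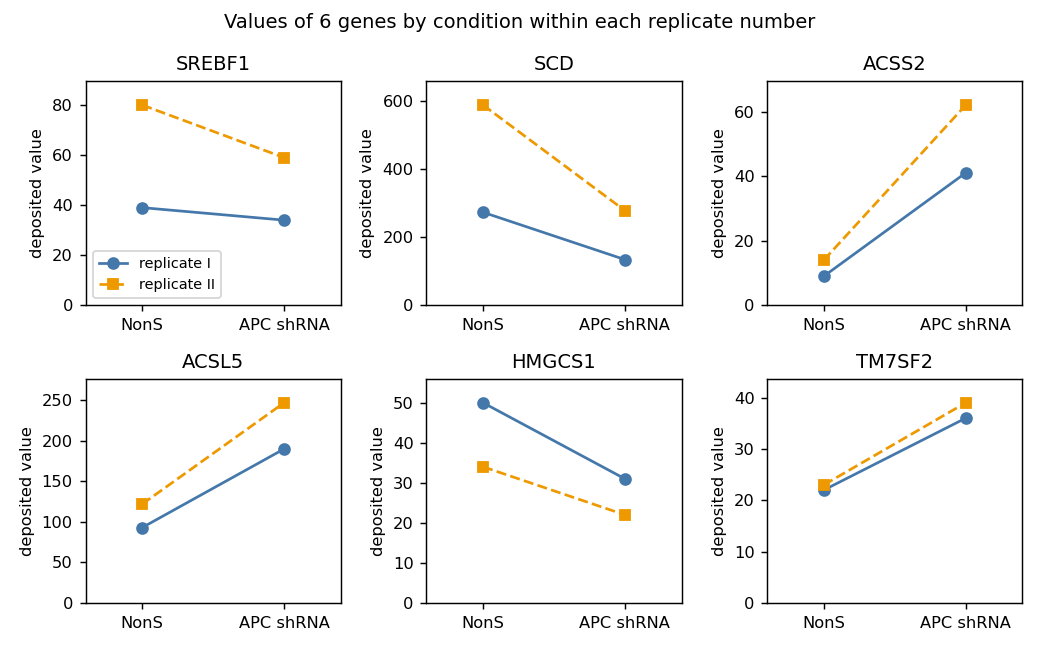
Deposited values of SREBF1, SCD, ACSS2, ACSL5, HMGCS1 and TM7SF2 in NonS and APC shRNA libraries, with lines joining libraries of the same replicate number. The lines run nearly in parallel on a ratio scale for SCD (273 to 134 and 588 to 278) and ACSL5 (93 to 190 and 122 to 247), and replicate II lies above I except in HMGCS1.

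The promoters of the genes were read from RefSeq windows of 300 bases on GRCh38.p14, from 250 bases before to 50 after the start. Of the 39 genes 35 had at least 1 window, 50 windows in all. Letters searched on both strands were CCAAT, the box bound by NF-Y, which acts together with SREBPs at many of their targets, CACNCCAC and its longer form TCACNCCAC for the sterol regulatory element, CACGTG for the E-box and CTTTGAT for TCF factors. The shorter sterol letters, which contain every match of the longer ones, were added after the longer ones had matched in 2 of the 50 windows. CCAAT was held by 60% of the windows of the 39 genes, by 75% of those of the sterol enzymes, and by 34.6% of windows of all genes and 36% of those of the genes tested. CACNCCAC was held by 18% of the windows, against 5.87% of all, TCACNCCAC by 4% against 1.13%, and CACGTG by 12% against 7.26%. CTTTGAT was in 0 of the 50 windows, against 2.62% of all windows. Among windows of the genes tested the shares were 5.79% for CACNCCAC, 1.20% for TCACNCCAC, 10.7% for CACGTG and 1.33% for CTTTGAT. These are descriptions of letters and not of binding.

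The windows of the 4 genes called without the block, and of SCD, the highest gene in NonS, are given with CCAAT and CACNCCAC, or their reverse complements, in capitals. DHCR7 has a further window with neither.
FDPS (chr1:155308616-155308915, plus strand): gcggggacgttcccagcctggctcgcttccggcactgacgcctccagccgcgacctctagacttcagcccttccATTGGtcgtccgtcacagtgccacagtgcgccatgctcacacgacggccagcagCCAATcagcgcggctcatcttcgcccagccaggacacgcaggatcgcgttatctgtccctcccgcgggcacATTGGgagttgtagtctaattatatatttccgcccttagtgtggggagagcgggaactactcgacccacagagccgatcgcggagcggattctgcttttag
DHCR7 (chr11:71448344-71448643, minus strand): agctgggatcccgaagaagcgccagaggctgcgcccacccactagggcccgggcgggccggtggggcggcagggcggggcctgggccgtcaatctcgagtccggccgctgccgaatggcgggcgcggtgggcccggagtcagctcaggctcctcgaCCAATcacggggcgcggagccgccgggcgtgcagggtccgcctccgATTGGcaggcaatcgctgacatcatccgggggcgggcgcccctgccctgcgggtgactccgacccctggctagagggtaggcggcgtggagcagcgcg
TM7SF2 (chr11:65111622-65111921, plus strand): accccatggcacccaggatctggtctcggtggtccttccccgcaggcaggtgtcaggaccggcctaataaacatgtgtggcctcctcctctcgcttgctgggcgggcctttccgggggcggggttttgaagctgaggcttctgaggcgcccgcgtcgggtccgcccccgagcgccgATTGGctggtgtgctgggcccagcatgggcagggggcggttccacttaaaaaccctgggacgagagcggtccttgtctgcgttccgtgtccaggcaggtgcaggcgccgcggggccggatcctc
ACSL3 (chr2:222860786-222861085, plus strand): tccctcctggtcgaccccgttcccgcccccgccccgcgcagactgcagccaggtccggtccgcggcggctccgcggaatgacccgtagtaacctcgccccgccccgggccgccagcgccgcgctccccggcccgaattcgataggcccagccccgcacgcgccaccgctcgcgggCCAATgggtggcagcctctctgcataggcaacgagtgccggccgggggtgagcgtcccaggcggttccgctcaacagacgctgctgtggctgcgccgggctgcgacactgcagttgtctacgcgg
SCD (chr10:100346983-100347282, plus strand): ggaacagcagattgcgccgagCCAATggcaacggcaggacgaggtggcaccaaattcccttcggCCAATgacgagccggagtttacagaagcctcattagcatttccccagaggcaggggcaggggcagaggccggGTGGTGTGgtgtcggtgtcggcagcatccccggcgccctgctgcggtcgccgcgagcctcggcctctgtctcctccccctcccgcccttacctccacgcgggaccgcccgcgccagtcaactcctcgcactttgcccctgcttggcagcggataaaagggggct
The leftmost base of each CCAAT or its complement lies at -176, -122 and -51 in FDPS, at -94 and -48 in DHCR7, at -74 in TM7SF2, at -75 in ACSL3 and at -229 and -186 in SCD, counted from the start. CACNCCAC was found among the 5 windows only in SCD, at -114. The single match is ATTGG in TM7SF2, which rose, and CCAAT in ACSL3, which fell. Whether these letters bear on the direction of a difference was not tested.

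Other lipid genes were taken from 4 lists, set with earlier results known. Of the 18 genes of fatty acid oxidation 12 were tested, and 3 fell and 0 rose, against 3.7% and 4.33% of all genes, with a median difference of -0.38. CPT1A, which admits long-chain fatty acids to mitochondria, was at 25 in both NonS against 15 in both APC shRNA libraries (-0.70, SE 0.047, adjusted p = 0.0423, limma). ETFB, an electron carrier subunit of the same pathway, was at 55 and 59 in NonS against 35 and 34 in APC shRNA libraries, and HADH, a dehydrogenase of the pathway, was at 33 in both NonS against 25 in both APC shRNA libraries. These 3 genes held nearly equal values within a group. With the block 6 of the 12 fell, against 9.3% of all genes, ACAA2 among them (25 and 27 in NonS, 18 and 19 in APC shRNA libraries, adjusted p = 0.0474, limma).

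In the other lists 0 genes were called without the block, where 4.33% of all genes were higher and 3.7% lower. With the block, 9.73% of all genes were called higher and 9.3% lower. Of the 10 genes tested of the 15 further sterol genes, TMEM97, an endoplasmic reticulum protein of sterol transport, was called lower with it (33 and 26 in NonS, 19 and 17 in APC shRNA libraries, adjusted p = 0.0492, limma). NPC2, which carries cholesterol out of lysosomes, was called higher with it (11 and 13 in NonS, 18 and 22 in APC shRNA libraries, adjusted p = 0.0468, limma). The median difference of the 10 was 0.099. Of the 9 genes tested of the 17 for further fatty acid synthesis and elongation, ACSF2, an acyl-CoA synthetase, was called higher with it (20 and 24 in NonS, 29 and 33 in APC shRNA libraries, adjusted p = 0.0479, limma), and the median was -0.19. Of the 16 genes of glycerolipid synthesis 8 were tested, 0 were called with or without the block, and the median was 0.17.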

How the data were processed

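Polyadenylated RNA of 4 HT-29 libraries, 2 per condition, was sequenced as single reads. The authors filtered reads, trimmed polyA tails, mapped them with TopHat2 to human genome assembly 38 and counted them with htseq-count against GENCODE v29, the strand option of which was not given in the sources used here. The submitters' processing notes name hg19 instead. Each library file deposited by the authors holds 1 whole number per gene, used here as a score of unstated scale, since duplicates varied less than read counts can. The authors' own comparison table (mean, fold change and adjusted p from DESeq2 1.4.1) was not used. Columns of per-sample values not used numbered 0.

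Groups followed the sample titles. log2(value + 1) was fitted without scaling by limma 3.58.1 (R 4.3.3), using empirical Bayes variances with an intensity trend. The 5376 genes whose mean reached 10 entered the fit, and Benjamini-Hochberg adjustment covered all of them. With 2 libraries against 2, the smallest p an exact permutation test allows is 0.333. The p-values measure the spread between these cultures. The submitters describe the duplicates as a repeat of the experiment, and differences of II from I were correlated between conditions (0.724 across genes), so the numbers were taken as pairs. The labels do not state that a number marks a shared day. For GC content correction, a loess curve (span 0.5) over the GC content of the longest GENCODE v29 transcript was subtracted in each library. Alternatives covered scaling, filters, pseudocounts, GC content, the block and each library left out. The fits without the block, with the block and with the replicate term were tested on simulated data made from the real means and spread. Fits with GC content correction or other alternative settings were not simulated. Fitted differences followed the simulated ones in each fit tested, but rounding to whole numbers, which leaves duplicates tied, limited the calls. On rounded values with few genes changed, the fit with the block called few or none, and it called most where many genes changed. The replicate term made no calls on rounded values and many on the same values unrounded. The 39 genes, the 4 lists and the call threshold were chosen with earlier results of these data known. Every one of the 39 genes was named, and from the lists those called, up to 4 per list.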

Additional observations from a re-analysis of the deposited data

How the results depend on the processing

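Without the block 1 of the 31 genes rose and 3 fell. Genes that rose numbered 2 with median-of-ratios size factors, and 3 when scaled to equal totals, with GC content correction, with the replicate block and with block and GC content correction together. Of all 5376 genes (5364 with GC content correction), 310, 343, 445, 523 and 1225 rose in these fits, in that order. Genes that fell numbered 6 (449 of all genes) with GC content correction and 19 (1235 of all genes) with block and GC content correction. Both counts were 0 in each of the 4 fits that left out a library. Over all genes 432 were called without the block, 1023 with the replicate block, 2460 with block and GC content correction, 273 with at least 10 in every sample and 1467 with a total of at least 1. The median difference of -0.39 was -0.41 when scaled to equal totals, -0.36 with at least 10 in every sample, -0.42 and -0.31 with pseudocounts of 0.1 and 5, and -0.41 to -0.36 over the fits that left out a library. Between replicates, where 0 were called, 5 were higher and 2 lower with median-of-ratios size factors, 4 and 1 when scaled to equal totals, and 4 and 0 with GC content correction. Over all genes these numbers were 302 and 272, 180 and 196, and 125 and 59. In the lists, the replicate block gave 1 higher and 1 lower sterol gene, 1 higher fatty acid synthesis gene and 6 lower oxidation genes, and median-of-ratios size factors gave 1 lower sterol gene. The replicate block called 523 of all genes higher and 500 lower, and median-of-ratios size factors called 305 lower. The sign turned for SREBF2 with GC content correction, with or without the block (-0.037), and without NonS replicate I (-0.013, in a range of -0.013 to 0.12 over the libraries left out), for SREBF1 without NonS replicate II (0.20) and without APC shRNA replicate I (0.076, range -0.82 to 0.20), for INSIG1 without APC shRNA replicate I (0.14, range -0.73 to 0.14), and for NSDHL without APC shRNA replicate II (0.00037, range -0.14 to 0.00037). SREBF1 was called lower with block and GC content correction (-0.43, adjusted p = 0.0119, limma), and SREBF2, INSIG1 and NSDHL were not called with or without the block or GC content correction. What caused the changes of sign was not tested. In 132 of the genes tested the duplicates had equal values in both conditions, and the prior degrees of freedom of the comparison of conditions were 1.14 as reported, 2.09 with median-of-ratios size factors, 2.36 when scaled to equal totals, 2.46 with GC content correction and 2.99 with block and GC content correction. Rounding to whole numbers limits what low genes can show.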
